A study of Mus musculus with 6 samples.

Results

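The 10 genes described here encode the 5 subunits of the transcription factor NF-kappaB (*Nfkb1*, *Nfkb2*, *Rel*, *Rela* and *Relb*) and 5 inhibitors or nuclear partners of those subunits (*Nfkbia*, *Nfkbie*, *Nfkbiz*, *Tnfaip3* and *Bcl3*). They were picked by gene symbol from a whole-liver RNA-seq table of 55254 genes, in which all 10 were found. Mice were fed for 7 weeks with CDA-HFD, a high-fat diet without choline and with defined amino acids that produces steatohepatitis (n = 3 libraries), and control mice were fed a normal diet (ND, n = 3 libraries). All animals were wild type (WT), and the study's methods describe its diet-fed animals as young adult males and name the strain C57BL/6J. Levels are TPM, in which reads per gene are divided by transcript length and scaled to the same total in every library, so that genes can be compared with each other.

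NF-kappaB subunits bind DNA as dimers at kappaB sites. In the canonical pathway, receptors for TNF, IL-1 and bacterial products activate a kinase complex that triggers loss of IkappaB proteins and frees dimers such as p50 with p65. In the non-canonical pathway, receptors of the lymphotoxin and TWEAK type stabilize the kinase NIK, and p100, the product of *Nfkb2*, is cut to p52, the partner of RelB. NF-kappaB raises transcription of its own inhibitors in many cell types, which is why *Nfkbia* and *Tnfaip3* are called feedback inhibitors, and in liver the pathway is active in macrophages and other leukocytes as well as in hepatocytes.

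Since the members are known both as parts and as targets of the pathway, their promoters were read for the kappaB consensus. RefSeq promoter windows on build GRCm38.p6, from 250 bases before to 50 bases after an annotated start, were matched for 7 of the 10 genes (all but *Nfkb1*, *Relb* and *Nfkbiz*), with 3 starts for *Nfkb2* and 2 for *Tnfaip3*. The 10-base kappaB consensus, searched on both strands, was in 8 of these 10 windows and in at least 1 window of 6 of the 7 genes, against 8.46% of all 32851 promoter windows. *Rela* and the second start of *Tnfaip3* had no match. The windows of 3 genes of contrasting behavior in the data below are given in full, 5′ to 3′ on the strand of the gene, with matches in capitals. *Tnfaip3* had the largest fold change of the 10, *Nfkb2* was the subunit gene with the most matches, and *Bcl3* did not pass the test between the diets.
Tnfaip3, first start, chr10:19015361-19015660, minus strand: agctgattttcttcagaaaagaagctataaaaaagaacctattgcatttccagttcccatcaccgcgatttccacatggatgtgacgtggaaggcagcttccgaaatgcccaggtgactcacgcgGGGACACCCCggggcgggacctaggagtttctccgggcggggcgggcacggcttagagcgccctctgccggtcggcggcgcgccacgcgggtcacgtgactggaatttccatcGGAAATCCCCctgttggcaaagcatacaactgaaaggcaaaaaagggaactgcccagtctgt
Nfkb2, first start, chr19:46304487-46304786, plus strand: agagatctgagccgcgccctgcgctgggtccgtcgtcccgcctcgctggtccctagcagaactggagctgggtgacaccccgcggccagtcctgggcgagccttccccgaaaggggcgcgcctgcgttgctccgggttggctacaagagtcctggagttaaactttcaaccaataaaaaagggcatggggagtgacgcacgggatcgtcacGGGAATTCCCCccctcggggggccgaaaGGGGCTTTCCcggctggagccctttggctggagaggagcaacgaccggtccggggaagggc
Bcl3, chr7:19822706-19823005, minus strand: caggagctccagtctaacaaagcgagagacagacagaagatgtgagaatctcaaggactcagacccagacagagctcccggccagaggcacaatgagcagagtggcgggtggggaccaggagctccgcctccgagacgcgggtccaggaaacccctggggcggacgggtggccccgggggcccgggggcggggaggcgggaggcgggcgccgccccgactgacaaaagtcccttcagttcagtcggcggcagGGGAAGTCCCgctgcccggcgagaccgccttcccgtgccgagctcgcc
Counted in bases from the start, with the start at 0, the 2 matches in the *Tnfaip3* window began at −125 and −12. In the *Nfkb2* window a match at −39 overlapped another at −38, and a further match began at −11. The single *Bcl3* match began at 2.

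The other genes with a match are shown by the site and 10 bases on each side, to set the sites beside each other. Coordinates are those of the 10 capitals.
Nfkbia, chr12:55492667-55492676, minus strand, at −29: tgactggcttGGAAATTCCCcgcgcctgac
Rel, chr11:23771052-23771061, minus strand, at −92: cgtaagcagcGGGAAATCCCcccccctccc
Nfkbie, chr17:45555594-45555603, plus strand, at −106: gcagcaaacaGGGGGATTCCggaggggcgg
Nfkb2, second start, chr19:46305705-46305714, plus strand, at 10: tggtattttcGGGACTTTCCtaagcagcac
A further match of the second *Nfkb2* start began at −236, and the last of the sites above also lay in the window of the third *Nfkb2* start. The *Rel* site overlapped a second match at −91. *Bcl3*, which did not pass the test, and *Tnfaip3*, which rose, both had a match. A match describes letters in a window and was not tested for binding.

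**Figure D1:**
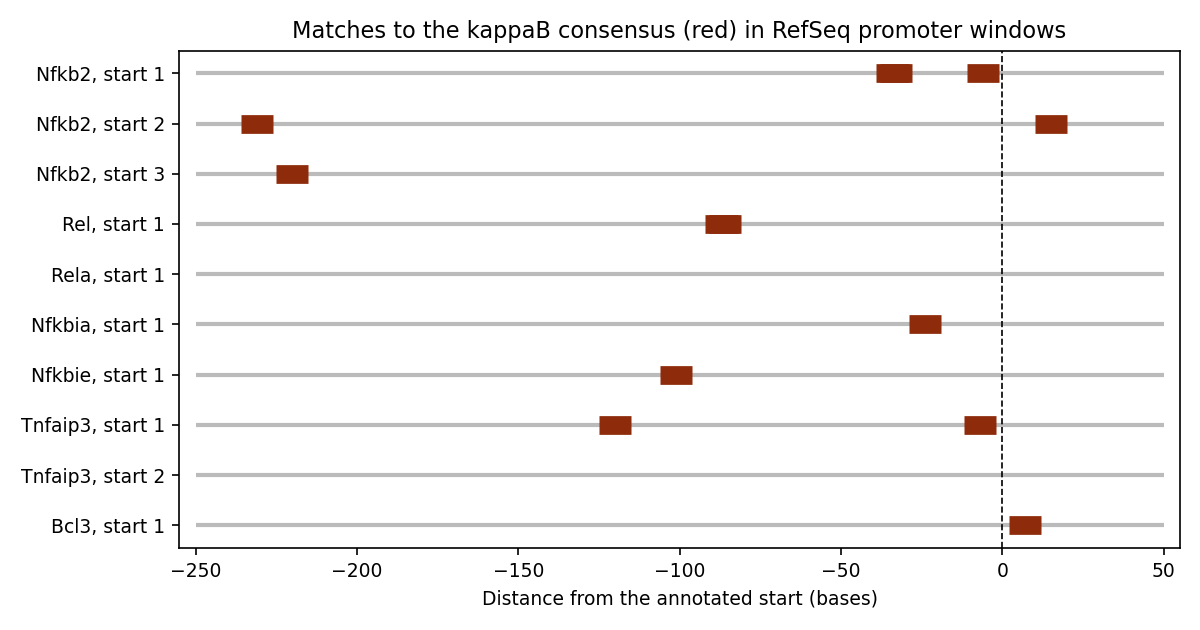
Positions of kappaB consensus matches in the promoter windows of the 7 genes that had one, as distance in bases from the annotated start (x axis), with one row per start. Matches lie in 8 of 10 windows, and *Rela* and the second start of *Tnfaip3* are empty.

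The libraries gave 16830198 to 18919516 recovered reads in CDA-HFD and 14125649 to 15301208 in ND, so the members rested on 250 to 1886 reads each in a CDA-HFD library and on 34 to 1044 in an ND library. The source is labelled liver while the labels' extraction text mentions sorted cells. Albumin, the main secreted product of hepatocytes (*Alb*), stood at 11964 to 13347 TPM in CDA-HFD and 15387 to 15615 TPM in ND. Leukocyte genes differed strongly between the diets. The 5 pan-leukocyte markers, of which *Cd52* was the most abundant, all rose and summed to 902 to 962 TPM in CDA-HFD against 117 to 119 TPM in ND. The 5 macrophage markers, led by *Lyz2*, also all rose, with sums of 3672 to 3974 TPM in CDA-HFD and 338 to 391 TPM in ND. Neutrophil markers (4 of 4, 95.3 to 151 TPM in CDA-HFD, 16.9 to 25.5 TPM in ND) and cholangiocyte markers (4 of 4, 103 to 115 TPM in CDA-HFD, 9.68 to 11.4 TPM in ND) rose as well. Of 4 T cell markers 3 rose (*Cd2*, log2 fold change 0.78, was the exception), as did both B cell markers that could be tested and 3 of 4 stellate cell markers (*Lrat*, log2 fold change 0.98, was the exception). None of the 5 hepatocyte markers rose or fell (2 were lower at an adjusted p below 0.05), with sums of 22317 to 24009 TPM in CDA-HFD and 27716 to 28874 TPM in ND. Of 4 endothelial markers 1, *Kdr*, fell, and 3, *Kdr* included, were lower at an adjusted p below 0.05. No marker was at 0 in all libraries. Of the markers that rose, *Cd3e* and *Cd3d* (T cell), *Cxcr2* (neutrophil) and *Krt7* (cholangiocyte) averaged under 1 TPM in ND. They reached the mean of 1 TPM needed for testing only through their CDA-HFD level, and so had to be higher there.

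The comparison of the diets asked which of the 10 genes differed in liver after 7 weeks of CDA-HFD. *Nfkb1*, *Nfkb2* and *Relb* among the subunits and *Nfkbie*, *Nfkbiz* and *Tnfaip3* among the inhibitors and partners rose, by 2.08 to 10.7 times in mean TPM. No member fell. *Rela*, *Rel* and *Nfkbia* were higher in every CDA-HFD library than in any ND library but stayed under the fold limit, and *Bcl3* did not pass the test. Rose and fell are used of genes that had both a limma adjusted p below 0.05, over all 14730 genes averaging 1 TPM or more, and a log2 fold change of 1 or more in size. All 10 members averaged 1 TPM or more in each diet. By this rule 6 of the 10 rose, where 21.1% of all tested genes rose and 3.79% fell. The groups did not overlap for 9 of the 10 members, against 71.0% of all tested genes, and the 9 also had an adjusted p below 0.05 with the higher level in CDA-HFD, against 51.6% of all genes (a further 14.4% were lower in CDA-HFD at that p). The median log2 fold change was 1.33 over the 10 members and 0.32 over all genes. With median-of-ratios scaling 5 members rose (all genes 15.4% rose, 7.13% fell), and with quantile normalization the same number rose (all genes 11.7% rose, 8.15% fell). Fold changes are on the log2(TPM + 1) scale, which understates changes of genes at low TPM. In bulk liver, a gene that rises because more cells of a type are present and a gene that rises within each cell cannot be told apart.

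**Figure D2:**
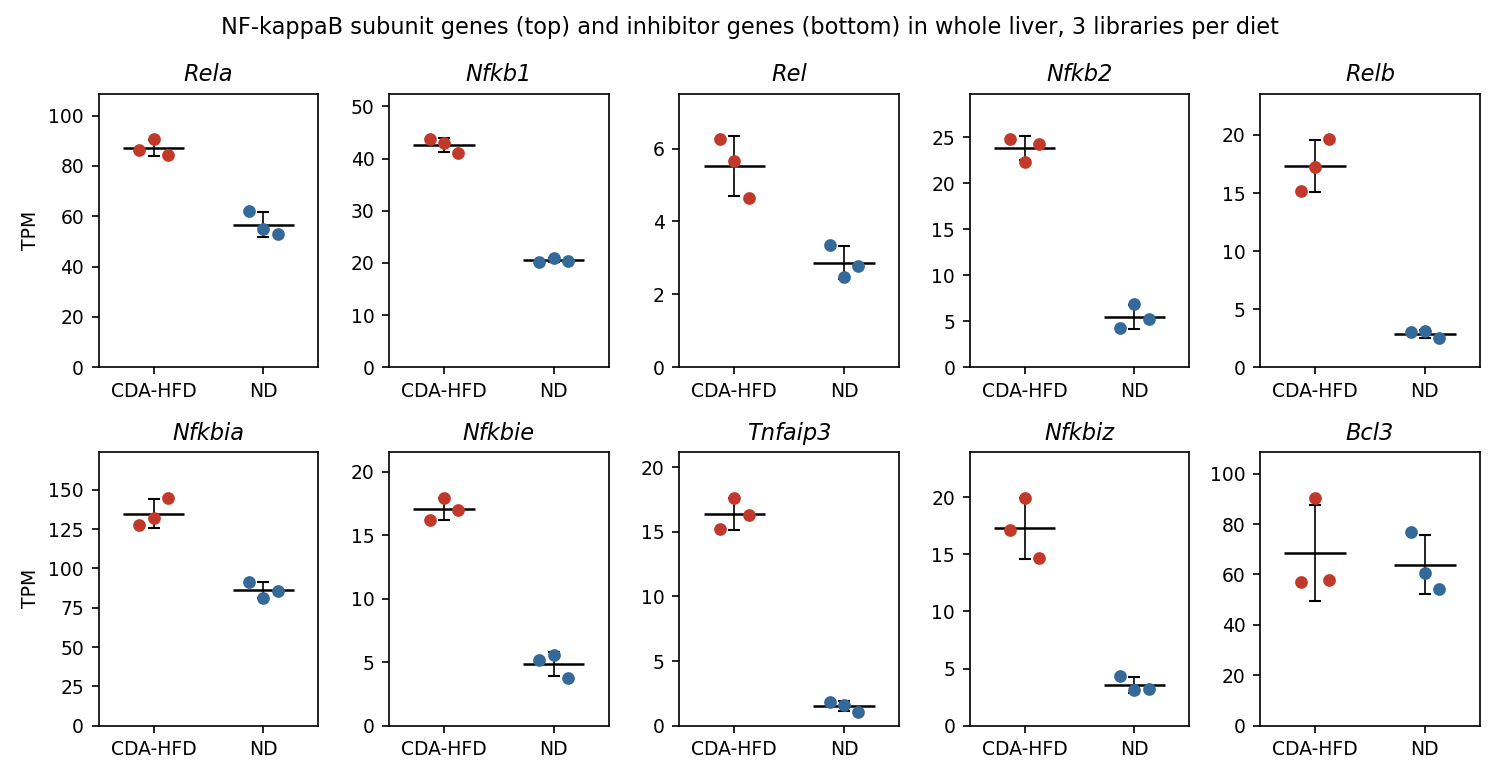
TPM of the 10 genes (y axis from 0, own scale per gene) in the 3 CDA-HFD and 3 ND libraries, with each point a library, the horizontal line the mean and the error bar 1 SD. The diets overlap only for *Bcl3*.

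Of the subunit genes, *Relb* and *Nfkb2*, which encode the dimer partners of the non-canonical pathway, had the largest changes. *Relb* (chr7:19606217-19629438, minus strand) was at 15.1, 17.2 and 19.6 TPM in CDA-HFD and at 3.00, 3.12 and 2.48 TPM in ND. Every CDA-HFD library was thus several times above the highest ND library, and the log2 fold change was 2.24 ± 0.12 (SE, limma adjusted p = 2.11e-06). *Nfkb2* (chr19:46304320-46312385, plus strand) was at 24.8, 22.3 and 24.3 TPM in CDA-HFD and at 4.30, 6.86 and 5.19 TPM in ND. The ND libraries spread more widely in proportion than the CDA-HFD libraries, without reaching them, and the log2 fold change was 1.96 ± 0.14 (adjusted p = 9.96e-06). Exons of *Nfkb2* share 531 bases (12.58% of its exon length) with *AC114539.1* and 299 bases (7.08%) with *Psd*, both on the opposite strand. Whether reads there were counted for *Nfkb2*, for the other gene or left out is not known, since the strand setting is not given in the sources used here. *Psd* itself was at 2.43 to 2.99 TPM in CDA-HFD and 0.341 to 0.597 TPM in ND, far below *Nfkb2*.

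*Nfkb1* encodes p105, the precursor of the canonical subunit p50. Its level was 43.7, 43.0 and 41.0 TPM in CDA-HFD and 20.2, 20.9 and 20.3 TPM in ND (chr3:135584655-135691547, minus strand). Replicates differed little within a diet, and the log2 fold change of 1.02 ± 0.07 (95% confidence interval 0.87 to 1.17, adjusted p = 4.72e-06) lay just past the fold limit. It was under the limit with median-of-ratios scaling (0.63), quantile normalization (0.66) and voom on recovered reads (0.95), always with the higher level in CDA-HFD.

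*Rela*, which encodes p65, the activating subunit of the canonical dimer, was the most abundant subunit transcript in both diets. It was at 86.3, 90.7 and 84.2 TPM in CDA-HFD and at 62.3, 54.8 and 52.7 TPM in ND (chr19:5637483-5648130, plus strand). The groups were apart, but the log2 fold change of 0.62 ± 0.08 (adjusted p = 0.000204) was under the limit and 0.30 above the median of all genes. That change was 0.22 with median-of-ratios scaling (limma adjusted p = 0.0295) and 0.41 with quantile normalization (adjusted p = 0.00282). *Rel*, the gene of c-Rel, a subunit best known from lymphoid and myeloid cells, was the least abundant subunit transcript in CDA-HFD. It stood at 6.26, 5.65 and 4.63 TPM in CDA-HFD and at 3.36, 2.47 and 2.78 TPM in ND (chr11:23736847-23770970, minus strand), again without overlap, with a log2 fold change of 0.75 ± 0.14 (adjusted p = 0.00210). With quantile normalization the difference of *Rel* was 0.05 with an adjusted p of 0.739.

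Among the inhibitors, *Tnfaip3* encodes A20, a ubiquitin-editing enzyme that ends signaling from TNF and Toll-like receptors, and it had the largest change of all 10 genes. It was at 15.2, 17.6 and 16.3 TPM in CDA-HFD and at 1.87, 1.63 and 1.10 TPM in ND (chr10:19000910-19015657, minus strand). It had the lowest mean of the 10 genes in ND, and the log2 fold change was 2.79 ± 0.14 (adjusted p = 1.17e-06), with a ratio of mean TPM of 10.7. *Nfkbie*, the gene of the cytoplasmic inhibitor IkappaB-epsilon, was at 16.2, 18.0 and 16.9 TPM in CDA-HFD and at 5.19, 5.54 and 3.77 TPM in ND (chr17:45555703-45563169, plus strand). Its groups were well apart, and the log2 fold change was 1.64 ± 0.13 (adjusted p = 1.62e-05).

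*Nfkbia* encodes IkappaB-alpha, the inhibitor that is destroyed and resynthesized fastest when the canonical pathway is switched on. It had the highest level of the 10 genes in every library, at 127.7, 131.9 and 145.0 TPM in CDA-HFD and 91.6, 81.2 and 85.8 TPM in ND (chr12:55489410-55492647, minus strand). The groups did not overlap, but the log2 fold change was 0.64 ± 0.07 (adjusted p = 0.000119), under the limit and close to that of *Rela*. That change was 0.24 with median-of-ratios scaling (limma adjusted p = 0.0345) and 0.50 with quantile normalization (adjusted p = 0.000657).

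*Nfkbiz* and *Bcl3* encode nuclear IkappaB-like proteins that bind p50 or p52 dimers on DNA and can raise transcription of some genes. *Nfkbiz* was at 17.2, 20.0 and 14.7 TPM in CDA-HFD and at 4.38, 3.12 and 3.22 TPM in ND (chr16:55811375-55838899, minus strand). It rose by 2.00 ± 0.15 on the log2 scale (adjusted p = 1.07e-05), with no overlap between the diets. *Bcl3* was at 57.1, 90.5 and 57.8 TPM in CDA-HFD and at 77.0, 60.5 and 54.2 TPM in ND (chr7:19808462-19822770, minus strand). The groups overlapped, the highest value was a single CDA-HFD library and the log2 fold change was 0.08 ± 0.20 (95% confidence interval −0.37 to 0.53, adjusted p = 0.732). Its sign turned with the scaling, to −0.31 (median-of-ratios) and −0.14 (quantile), and to −0.13 without the high CDA-HFD library (replicate 2). Exons of *Bcl3* share 55 bases (2.97%) with *Gm16175* on the opposite strand, listed at no more than 1.71 TPM in any library.

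**Figure D3:**
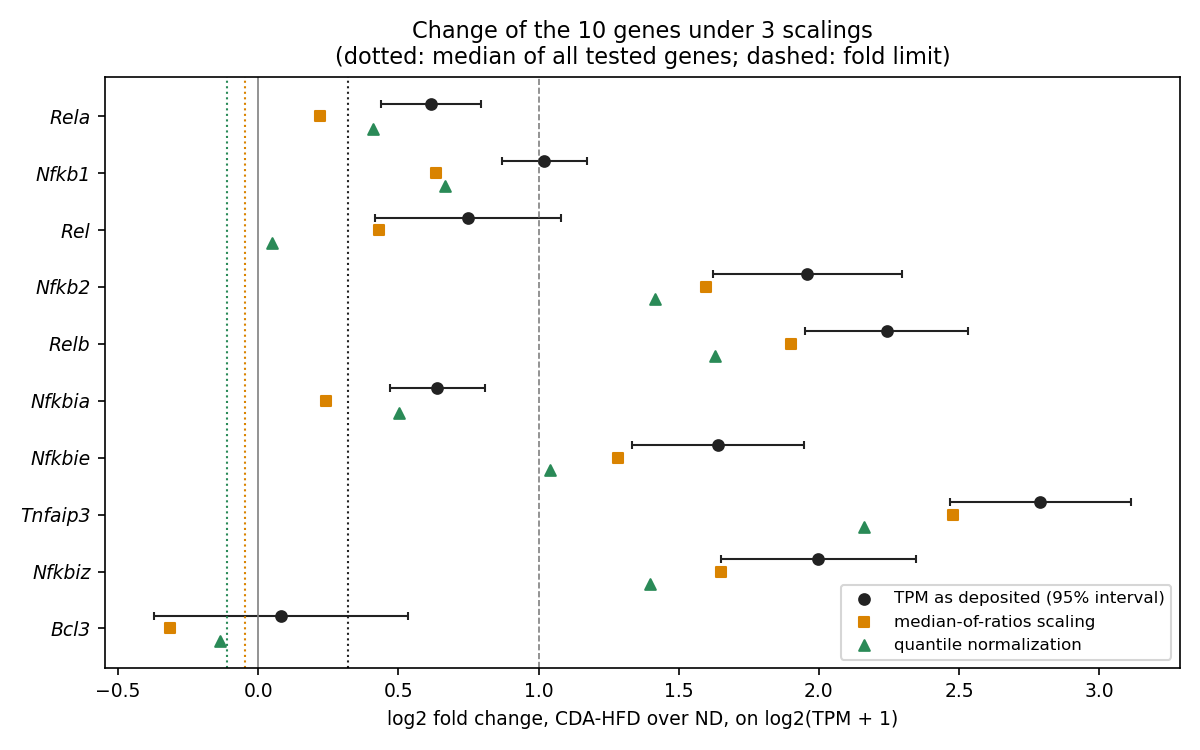
Log2 fold change on the log2(TPM + 1) scale, CDA-HFD against ND, for each of the 10 genes, with 95% confidence intervals, beside the values under the 2 other scalings. *Tnfaip3* is highest at 2.79, *Nfkb1* lies at the fold limit of 1, and *Bcl3* lies on both sides of 0 depending on the scaling.

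Ordered by TPM, the levels in CDA-HFD ran from *Nfkbia* through *Rela*, *Bcl3*, *Nfkb1* and *Nfkb2* to *Relb*, *Nfkbiz*, *Nfkbie* and *Tnfaip3*, with *Rel* last. The ranges of *Rela* and *Bcl3* overlapped, and those of *Relb*, *Nfkbiz*, *Nfkbie* and *Tnfaip3* overlapped each other. In ND the order was *Nfkbia*, *Bcl3*, *Rela*, *Nfkb1*, *Nfkb2*, *Nfkbie*, *Nfkbiz*, *Rel*, *Relb* and *Tnfaip3*. There *Bcl3* and *Rela* overlapped, as did each neighboring pair of genes between *Nfkb2* and *Relb*. The orders thus differed in *Rela* and *Bcl3*, which overlapped in both diets, and at the low end. There *Tnfaip3* was below every other member in all 3 ND libraries and level with *Relb*, *Nfkbiz* and *Nfkbie* in CDA-HFD.

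The make-up of the subunit transcripts was compared as well. Summed over the 5 subunit genes, the level was 176.3, 178.8 and 173.8 TPM in CDA-HFD and 93.2, 88.1 and 83.5 TPM in ND. *Nfkb2* and *Relb* together held 22.6%, 22.1% and 25.3% of this sum in CDA-HFD and 7.84%, 11.3% and 9.19% in ND. The shares of the non-canonical pair did not overlap and averaged 23.3% ± 1.69 in CDA-HFD against 9.45% ± 1.76 in ND (SD, n = 3 each, difference 13.9 percentage points, exact permutation test, two-sided p = 0.1). This is the smallest p that 3 against 3 libraries allow, and over the 29 sums, shares and ratios compared the lowest Benjamini-Hochberg adjusted value was 0.116, so none passed 0.05. *Rela* held 49.4% ± 1.18 of the subunit sum in CDA-HFD and 64.1% ± 2.46 in ND, again without overlap (p = 0.1 by the same exact test). The shares of *Nfkb1* (24.2% in CDA-HFD, 23.2% in ND) and of *Rel* (3.13% in CDA-HFD, 3.25% in ND) overlapped between the diets.

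Ratios between related members are given as a description, since these pairs and the single-gene shares were picked after the levels were seen. *Relb* over *Rela* was 0.200 ± 0.0301 in CDA-HFD and 0.0507 ± 0.00543 in ND (SD, n = 3 each). *Nfkb2* over *Nfkb1* was 0.559 ± 0.0367 in CDA-HFD and 0.265 ± 0.0583 in ND, and *Tnfaip3* over *Nfkbia* was 0.122 ± 0.0109 in CDA-HFD and 0.0178 ± 0.00432 in ND. In each of these ratios every CDA-HFD library lay above every ND library.

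The level of inhibitor transcripts relative to subunit transcripts depended on which inhibitors were counted. *Nfkbia*, *Nfkbie* and *Tnfaip3* summed to 0.955 ± 0.0633 times the subunit sum in CDA-HFD and 1.05 ± 0.0421 times in ND (SD, n = 3 each, exact permutation test, two-sided p = 0.2), with overlapping libraries. Without the abundant *Nfkbia*, the ratio was 0.190 ± 0.0105 in CDA-HFD and 0.0718 ± 0.0120 in ND, a difference of the opposite sign. Adding *Nfkbiz* and *Bcl3* gave 1.44 ± 0.115 in CDA-HFD and 1.81 ± 0.108 in ND. Within the summed TPM of the 5 inhibitors and partners, *Bcl3* held 26.7% ± 5.12 in CDA-HFD and 39.7% ± 3.08 in ND, while *Tnfaip3* held 6.46% ± 0.0943 in CDA-HFD and 0.951% ± 0.183 in ND.

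**Figure D4:**
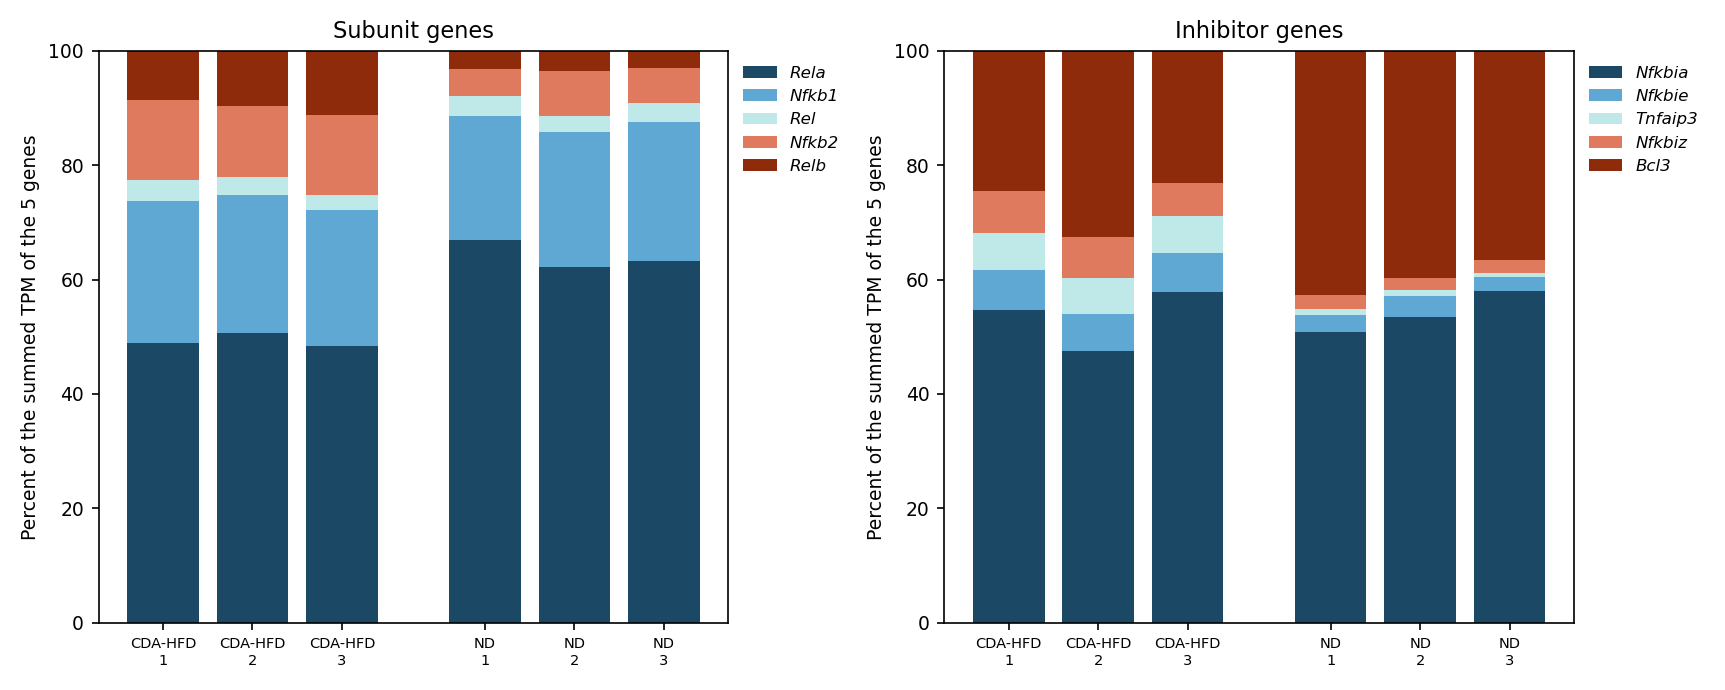
Percent of the summed TPM of the 5 subunit genes (left) and of the 5 inhibitors and partners (right) held by each gene in each of the 3 CDA-HFD and 3 ND libraries. *Nfkb2* and *Relb* fill 22.1% to 25.3% of the subunit sum in CDA-HFD and 7.84% to 11.3% in ND.

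The pan-leukocyte markers had log2 fold changes of 2.45 to 3.17, above those of all members except *Tnfaip3*. The subunit sum over the sum of the 5 pan-leukocyte markers was 0.187 ± 0.00717 in CDA-HFD and 0.749 ± 0.0365 in ND (SD, n = 3 each, exact permutation test, two-sided p = 0.1). Set over the same marker sum gene by gene, 9 of the 10 members had every CDA-HFD library below every ND library, as had 88.8% of all tested genes, from *Relb* (0.0184 in CDA-HFD, 0.0243 in ND) to *Bcl3* (0.0726 in CDA-HFD, 0.542 in ND). A share this near the background says nothing particular about the members. *Tnfaip3* was above instead (0.0174 ± 0.000817 in CDA-HFD, 0.0130 ± 0.00329 in ND), as were 4.01% of all tested genes. Over the macrophage marker sum, a denominator chosen after the data were seen, the *Tnfaip3* ratio was 0.00427 ± 0.000156 in CDA-HFD and 0.00423 ± 0.00127 in ND (SD, n = 3 each), and the libraries overlapped. How far the number of leukocytes or bile duct cells accounts for the rises of the members was not tested.

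The rest of the pathway was described through lists of genes by role. Of 12 IkappaB kinases and activating kinases, 2 rose and none fell (median log2 fold change 0.42), where 21.1% of all genes rose. The 2 were *Map3k14*, the gene of NIK, at 9.05, 10.4 and 8.66 TPM in CDA-HFD and 2.78, 2.54 and 2.16 TPM in ND (log2 fold change 1.57 ± 0.12, limma adjusted p = 1.17e-05), and *Map3k8*, the gene of the kinase Tpl2 that binds p105 (1.67 ± 0.12). Of the 3 genes of the kinase complex itself, *Chuk* (IKK-alpha) averaged 97.9 TPM in CDA-HFD and 115 TPM in ND (−0.23 ± 0.08, adjusted p = 0.0364), and *Ikbkb* (IKK-beta) had a log2 fold change of 0.53 ± 0.07. The *Ikbkb* change was 0.14 with median-of-ratios scaling (limma adjusted p = 0.106) and 0.22 with quantile normalization (adjusted p = 0.0234). *Ikbkg*, the gene of the scaffold NEMO, was at 0.31 ± 0.10, which turned to −0.077 (median-of-ratios) and −0.032 (quantile). None of these 3 passed the fold limit. With quantile normalization no kinase of the list rose (*Map3k14* 0.88, *Map3k8* 0.99). *Map3k14* shares 135 exon bases (3.18%) with *1700028N14Rik* on the same strand.

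Among upstream ligands and receptors, 7 of the 12 genes of the non-canonical list averaged 1 TPM or more and were tested. Of these 7, 3 passed that filter only through their CDA-HFD level and so had to be higher there, and 3 of the 4 others rose, where 21.1% of all genes rose. With quantile normalization 4 of the 7 rose (11.7% of all genes). *Ltb*, the membrane-bound lymphotoxin subunit, was at 18.0, 19.8 and 18.4 TPM in CDA-HFD and 2.61, 2.04 and 1.76 TPM in ND (2.66 ± 0.12). *Tnfrsf12a*, the receptor for TWEAK, was at 149, 117 and 131 TPM in CDA-HFD and 23.7, 19.8 and 21.1 TPM in ND (2.57 ± 0.11). *Tnfsf12*, also counted among the rises (1.63 ± 0.11), shares 728 exon bases (50.73%) with *Tnfsfm13* on the same strand. Its reads may therefore not be its own. The lymphotoxin receptor gene *Ltbr*, named after its values were seen as the only tested gene of the list not to pass, had a log2 fold change of 0.32. In the canonical list 5 of 11 genes rose, 1 of them with an ND mean under 1 TPM, and 1 fell (median 0.79). Over all genes 21.1% rose and 3.79% fell. The counts of the list were the same under the 2 other scalings, where 15.4% (median-of-ratios) and 11.7% (quantile) of all genes rose. *Cd14*, a co-receptor for bacterial lipopolysaccharide, rose by 3.40 ± 0.16 and *Tlr2*, a receptor for bacterial lipoproteins, by 2.30 ± 0.10. *Tlr4*, *Tnf* and its receptor gene *Tnfrsf1b* were the others. *Il1rap*, the co-receptor for IL-1, fell to 29.0, 28.4 and 28.4 TPM in CDA-HFD, against 63.5, 63.0 and 60.2 TPM in ND (−1.10 ± 0.06).

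Between receptors and kinases, 6 of 23 tested adaptors and ubiquitin ligases rose (median log2 fold change 0.59), a share near the 21.1% of all genes, with the largest rise in *Card9*, an adaptor best known from myeloid cells (2.39 ± 0.18). *Card9* was 1 of 2 rises of this list that averaged under 1 TPM in ND. Under each of the 2 other scalings the count was 2 of 23, where 15.4% (median-of-ratios) and 11.7% (quantile) of all genes rose. Other IkappaB genes numbered 3, of which 1 rose, where 21.1% of all genes rose. This was *Nfkbid*, a nuclear IkappaB gene (2.22, 2.46 and 3.48 TPM in CDA-HFD, 0.290, 0.0672 and 0.465 TPM in ND, log2 fold change 1.54 ± 0.19). It rested on 1 to 7 reads in an ND library and was under the fold limit with quantile normalization (0.81), where no gene of this list rose. *Nfkbib*, the gene of IkappaB-beta, was at 0.66 ± 0.08. Of 16 other negative regulators 7 rose and none fell (median 0.81), where 21.1% of all genes rose. The count was 5 (median-of-ratios, all genes 15.4%) and 4 (quantile, all genes 11.7%) under the other scalings, and 2 of the 7 averaged under 1 TPM in ND. The largest rises were in *Pdlim2*, a nuclear ubiquitin ligase for p65 (2.56 ± 0.11), and *Irak3*, an inhibitory member of the IRAK family (2.43 ± 0.15). *Cyld* and *Otulin*, deubiquitinases that also restrain the pathway and were named after their values were seen, had log2 fold changes of 0.04 and 0.09.

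Of the 30 genes commonly given as NF-kappaB targets 24 were tested, 20 rose and none fell. Of these 24, 5 passed the filter only through their CDA-HFD level, and 15 of the 19 others rose, where 21.1% of all genes rose. The 6 targets not tested, for a mean under 1 TPM, were *Sele*, *Il6*, *Il12b*, *Ptgs2*, *Nos2* and *Csf2*. *Il6* and *Csf2* had 0 to 1 reads in each library of both diets. *Sele*, *Il12b*, *Ptgs2* and *Nos2* averaged 0.333 to 0.971 TPM in CDA-HFD and 0.0112 to 0.107 TPM in ND. The largest rises were in *Lcn2*, a siderophore-binding acute phase protein (5.28 ± 0.24), and the chemokine gene *Ccl3* (4.23 ± 0.13). *Lcn2* was at 1436, 2046 and 1571 TPM in CDA-HFD and at 28.9, 59.3 and 42.4 TPM in ND. *Ccl3* was at 21.3, 26.5 and 24.2 TPM in CDA-HFD and at 0.423, 0.391 and 0.193 TPM in ND, where it rested on 1 to 2 reads per library. *Sod2*, *Cflar*, *Bcl2l1* and *Mmp9* were the 4 that did not pass, with log2 fold changes from −0.14 (*Sod2*) to 0.66 (*Bcl2l1*). Many of these targets are also expressed by leukocytes, whose markers rose as given above, and the part of leukocyte number in these rises was not tested. Reads of the near-identical copies *Bcl2a1b* and *Bcl2a1d* may have been split between them.

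**Figure D5:**
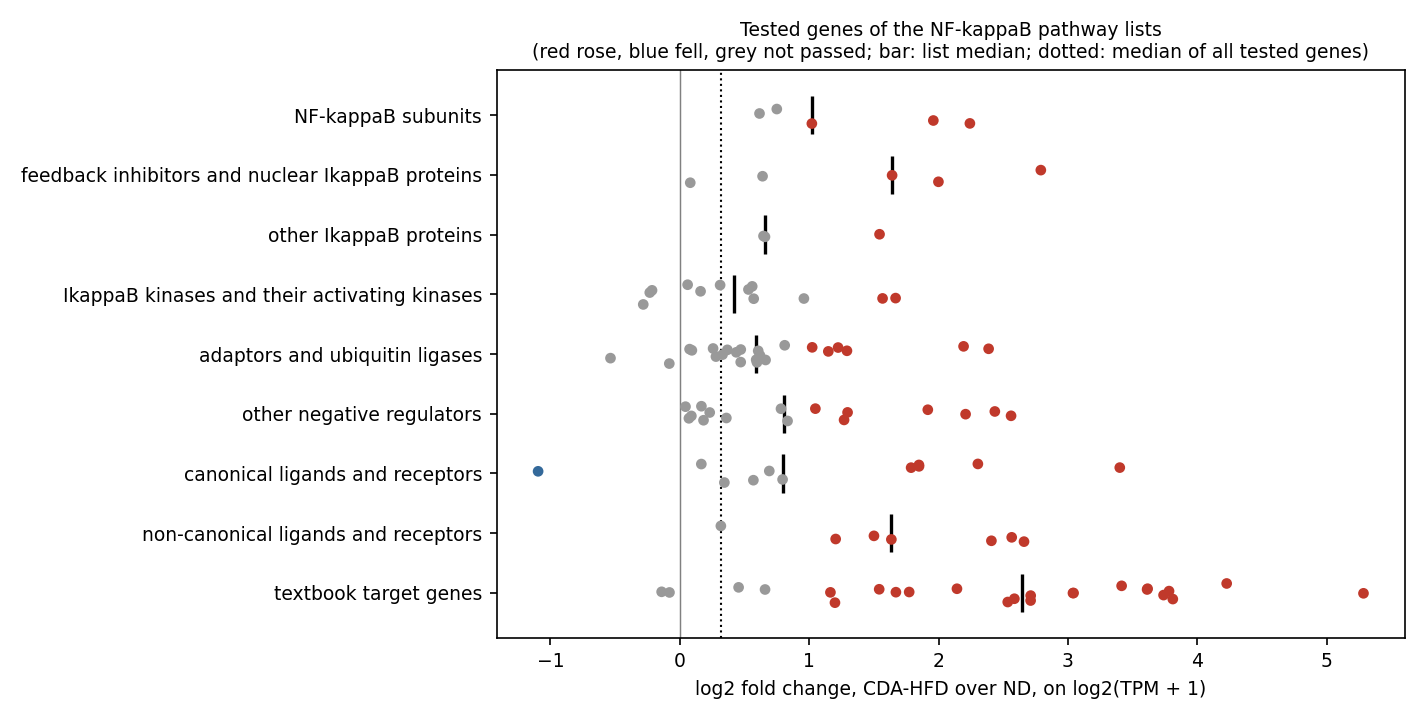
Log2 fold change on the log2(TPM + 1) scale, CDA-HFD against ND, for each tested gene of the pathway lists (one point per gene), with the median of each list and the median of all genes (0.32). The kinase list has its median at 0.42. Genes tested only through their CDA-HFD level were 3 non-canonical genes, 5 targets and 2 adaptors. So were 2 other negative regulators, 1 canonical gene and 1 other IkappaB gene.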

How the data were processed

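Whole-liver libraries of 3 CDA-HFD and 3 ND mice (biological replicates per the labels) were assigned from their titles. The deposited values were TPM, made by the authors on UCSC mm10 from single-end Nextera XT reads with PCR duplicates removed. Per the submitters' processing notes the tools were Trimmomatic 0.39.0, HISAT2 2.2.1 and featureCounts 2.0.1 on GRCm38. The annotation and strand setting are not given in the sources used here. Diets were compared with limma 3.58.1 (R 4.3.3) on log2(TPM + 1), fitting diet alone with a trended eBayes. Tests were two-sided, and p-values were adjusted by Benjamini-Hochberg across the 14730 genes averaging 1 TPM or more. Shares and ratios were compared per library by exact permutation. Nothing in the labels names a batch.

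Reads were recovered from TPM and GENCODE exon lengths, and 98.4% to 98.5% of detected values came out whole within 0.01 reads. They served for depth and for voom, which called 3162 rises and 715 falls. The chi-square between replicates averaged 8.03 to 11.8 per gene, more than read sampling gives. Gene coordinates came from GENCODE and promoter windows from RefSeq. The fit was tested on simulated data.

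The members and gene lists were chosen with earlier results of these data known. Named were all members, the genes of the IkappaB kinase complex, *Nfkbib*, *Nfkbid* and *Map3k14*, per pathway list the 2 largest rises and falls, and per marker list the most abundant gene. Some of what this rule takes in is not reported here. Other names were added after values were seen. Alternatives were pseudocounts, filters, scalings, variance models, fold limits, a replicate block, voom and leaving out each library.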

Additional observations from a re-analysis of the deposited data

How the results depend on the processing

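The count of 6 members that rose was 5 with median-of-ratios scaling, quantile normalization and voom (each time without *Nfkb1*), 9 with no fold limit or one of 1.5 times, and 6 under the other alternatives, each left-out library included. Of all tested genes 15.4%, 11.7% and 22.5% rose in the first 3 of these settings. With no fold limit 51.6% were higher and 14.4% lower in CDA-HFD, and no share was computed for the limit of 1.5. Under the other alternatives 12.2% to 24.4% of all tested genes rose. Rises were 84.8% of all changed genes on TPM, 68.3% with median-of-ratios scaling (2252 rises, 1044 falls) and 58.9% with quantile normalization (1718 rises, 1201 falls), while the median of all genes moved from 0.32 to −0.05 and −0.11. The pathway lists, the members included, held 54 changed genes, where 21.1% of all tested genes rose and 3.79% fell. Among the 54 are the list genes that were tested only through their CDA-HFD level. The count was 39 to 56 under the alternatives that kept the fold limit of 1. It was 89 with no fold limit, beside the 51.6% and 14.4% of all tested genes given above. The sign turned for *Bcl3* with median-of-ratios scaling (−0.31), quantile normalization (−0.14), voom (−0.028), without CDA-HFD replicate 2 (−0.13) and without ND replicate 3 (−0.028), and for *Ikbkg* with median-of-ratios scaling (−0.077) and quantile normalization (−0.032). The cause was not tested.

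Leaving out each library in turn gave log2 fold changes of 1.00 to 1.05 for *Nfkb1* and −0.13 to 0.22 for *Bcl3*. The difference in the *Nfkb2* and *Relb* share (13.9 percentage points) was 12.9 to 14.8 without a library, 19.9 without *Rela* and 10.2 on summed log2(TPM + 1). The difference in the inhibitor to subunit ratio (−0.0942) was −0.129 to −0.0681 without a library, −0.370 with *Nfkbiz* and *Bcl3* added and 0.118 without *Nfkbia*. The difference of the subunit sum over the pan-leukocyte sum (−0.561) was −0.579 to −0.543 without a library, −0.197 over macrophage markers and −0.174 without *Rela*.

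With a replicate block 6 members rose, 54 list genes changed (the members included) and over all genes 3128 rose and 559 fell. Same-numbered libraries deviated together only weakly (correlations 0.0862, 0.0387 and 0.0893), so the numbers were not taken as pairs. The 3 libraries per diet limit every exact test to p = 0.1, and *Tnfaip3* in ND rested on 34 to 53 reads per library.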
